A study of Bos taurus with 32 samples.

Results

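Matrix proteases, cathepsins and their inhibitors were followed in the endometrium of repeat breeder (RB) and non-RB cows. The members were the array probes whose gene name belongs to the MMP, ADAM, ADAMTS, cathepsin, plasminogen activator, TIMP, cystatin, SERPINE or SERPINB families. This rule, which used names and no measured value, gave 44 probes of 15208, each for a different gene. There were 30 proteases, 13 inhibitors and 1 receptor. The proteases were 11 matrix metalloproteases (MMPs), 6 ADAMs, 3 ADAMTS genes, 8 cathepsins and the plasminogen activators PLAT and PLAU. The inhibitors were 4 TIMPs, 3 cystatins and 6 serpins, and the receptor was PLAUR, which binds PLAU at the cell surface. MMP11, ADAM17 and ADAMTS1 were listed by role as genes to name and had no member probe.

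All cows were non-lactating Japanese Black cows killed on Day 15 of the estrous cycle. RB cows had repeatedly failed to conceive after insemination despite estrous behavior, whereas non-RB cows had conceived, had their pregnancy ended with a prostaglandin F2α analogue and had then cycled again. From 4 cows of each group, caruncular (CAR) and intercaruncular (ICAR) endometrium was taken from both uterine horns, the one on the side of the corpus luteum (ipsilateral) and the other (contralateral), which gave 32 samples, each on 1 single-colour array. The recent pregnancy with its induced loss was part of the non-RB history and not of the RB history.

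Endometrial matrix is cut and rebuilt in every cycle. MMPs are zinc-dependent enzymes that cleave collagens and other matrix proteins outside the cell, and TIMPs block them. ADAMs shed proteins from the cell surface, ADAMTS enzymes cleave proteoglycans or trim procollagen, and cathepsins mostly work in lysosomes, where cystatins restrain the cysteine-dependent ones if they escape. Plasminogen activators turn plasminogen into plasmin, and serpins such as SERPINE2 inhibit them or plasmin. In the ruminant uterus CAR is the gland-free tissue at which the placenta attaches, and ICAR carries the glands. The mRNA level of a protease or an inhibitor is not its activity, since many of these enzymes are made as inactive precursors.

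Each probe is a 60-base oligonucleotide, and 3 are shown because results below turn on their genes. TIMP1 had the smallest p-value of the members between CAR and ICAR, ADAM9 had the largest difference between RB and non-RB cows past an unadjusted p of 0.05, and MMP7 stood apart in 1 cow number. They are given 5′ to 3′ as the array files hold them, and their places in the genome were not mapped here.
TIMP1: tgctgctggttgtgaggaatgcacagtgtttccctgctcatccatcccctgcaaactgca
ADAM9: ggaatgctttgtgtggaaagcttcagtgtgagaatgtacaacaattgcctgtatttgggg
MMP7: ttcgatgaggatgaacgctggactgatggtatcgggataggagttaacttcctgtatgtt

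Levels are the log2 of the processed spot intensity minus the 75th percentile of all probes on the same array, so that 0 marks that percentile and each step of 1 is a doubling. A level belongs to its probe, and levels of different probes are not compared. The signal of 34 members was well above background on all 32 arrays, that of MMP1 and ADAM19 on 31 and that of MMP20 on 29. The collagenase MMP13 was well above background on 9 arrays and ADAMTS2, which trims procollagen, on 15. MMP3 reached it on 0 arrays, MMP16 and SERPINB2 on 1, ADAM1 on 2 and ADAM2, a sperm-surface ADAM, on 3. These 5 genes failed the filter of 8 of 32 arrays, and 39 members entered the comparisons over all arrays. In bulk tissue, fewer cells of a type and less RNA per cell cannot be told apart.

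Some arrays stood apart from the rest. Slide 1 held only the non-RB CAR contralateral array of number 2 and the non-RB ICAR contralateral array of number 1, and among 100 probes that share a sequence the SD of the log2 intensity was 1.32 and 0.87 on them, against 0.12 to 0.54 on the other 30 arrays. The CAR and ICAR arrays labelled RB contralateral number 3 went against their labels. Over 12384 probes the CAR minus ICAR difference of this pair correlated at -0.84 with the mean difference of the other 15 pairs of arrays that share group, horn and number, whereas the other pairs gave values between -0.15 and 0.80. This is a correlation across probes, which share an array and are not independent. Of 37 members checked, 30 differed in this pair in the direction opposite to the mean of the others. Whether the labels of these 2 arrays were exchanged was not tested, the labels were kept, and the results that turn on the pair are given with and without it. The cell type markers used below could be read on all arrays: the 5 probes for epithelium (such as KRT8 and MUC1), 6 for stroma (such as COL1A1 and PDGFRA), 3 for smooth muscle and 5 for endothelium were well above background on all 32 arrays. The lists for macrophages, T and NK cells and red blood cells held probes for which this was not so. For glandular epithelium the list had no probe, so the glands of ICAR were not checked. In all 8 combinations of group, compartment and horn the labelled tissue thus had its stromal and epithelial markers.

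The first comparison asked whether the protease balance differed between the placental attachment tissue and the glandular tissue. On all 32 arrays, fitted without the number as a block, none of 39 members passed the test between CAR and ICAR. The test was limma with a Benjamini-Hochberg adjusted p under 0.05, passed by 1.35% of all 12919 probes. Without the 2 contralateral arrays of RB number 3 the matrix metalloprotease MMP2 and the inhibitor TIMP1 passed, both higher in CAR, making 2 of 39 members beside 9.97% of all probes. The members were thus called no more often than probes in general. With an unadjusted p under 0.05 there were 3 members on all arrays (TIMP1, MMP2 and ADAMTS5) beside 16.2% of all probes, and 9 without the pair beside 22.2%. The higher mean was in CAR for 18 of 26 proteases, with a median log2 difference of 0.15, and for 5 of 12 inhibitors, with a median of -0.08. Of all probes 53.1% had the higher mean in CAR, with a median of 0.015. The classes were not tested against each other or against all probes.

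MMP2 is gelatinase A, which cleaves denatured collagen and basement membrane. Its log2 level ran from -3.48 to -0.18 over the 16 CAR arrays, with a median of -1.73, and between -3.55 and -1.29 over the 16 ICAR arrays, with a median of -2.23. The ranges overlapped, and the lowest CAR value was that of RB contralateral number 3. The log2 difference was 0.65 (SE 0.23, 95% interval 0.18 to 1.13, limma adjusted p = 0.131). CAR was higher in 13 of 16 pairs of the same group, horn and number, and in the mean of both horns for all 8 numbers (two-sided exact sign-change test, p = 0.00781, the smallest the test can give). That was the case, in 1 direction or the other, for 2.7% of all probes and for 2 members, of which SERPINE2 was the other. For MMP2 the horns nearly cancelled in RB number 3, at 1.43 (ipsilateral) and -1.40 (contralateral). They also had opposite signs in non-RB number 3, at -0.45 (ipsilateral) and 0.56 (contralateral). Without the contralateral pair of RB number 3, whose own difference was -1.40, the log2 difference of MMP2 became 0.79 (SE 0.22, limma adjusted p = 0.0212), or 1.73-fold.

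TIMP1 is a secreted inhibitor of most MMPs. Its log2 level lay between 0.61 and 1.74 in CAR with a median of 1.19, and between -0.47 and 1.68 in ICAR with a median of 0.57. The highest ICAR value again belonged to RB contralateral number 3, and the ranges overlapped. The log2 difference was 0.54 (SE 0.17, 95% interval 0.19 to 0.89, limma adjusted p = 0.0902), and CAR was higher in 12 of 16 pairs and for 6 of 8 numbers (exact sign-change test, p = 0.0312). Without the pair it was 0.64 (SE 0.17, limma adjusted p = 0.0123), or 1.56-fold. MMP2 and TIMP1 also passed when the 2 arrays of slide 1 were left out as well, with limma adjusted p-values of 0.0359 and 0.0180. On all 32 arrays with the slide as a block the log2 differences were 0.70 for MMP2 and 0.54 for TIMP1. With the scan session (arrays scanned in the same calendar month) as a block they were 0.68 and 0.49. None of these was past the adjusted threshold. With the number as a block on all 32 arrays the limma adjusted p-values were 0.0267 for MMP2 and 0.0324 for TIMP1, both past it. The labels do not say that a number marks a cow, so this fit is only an alternative.

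**Figure D1:**
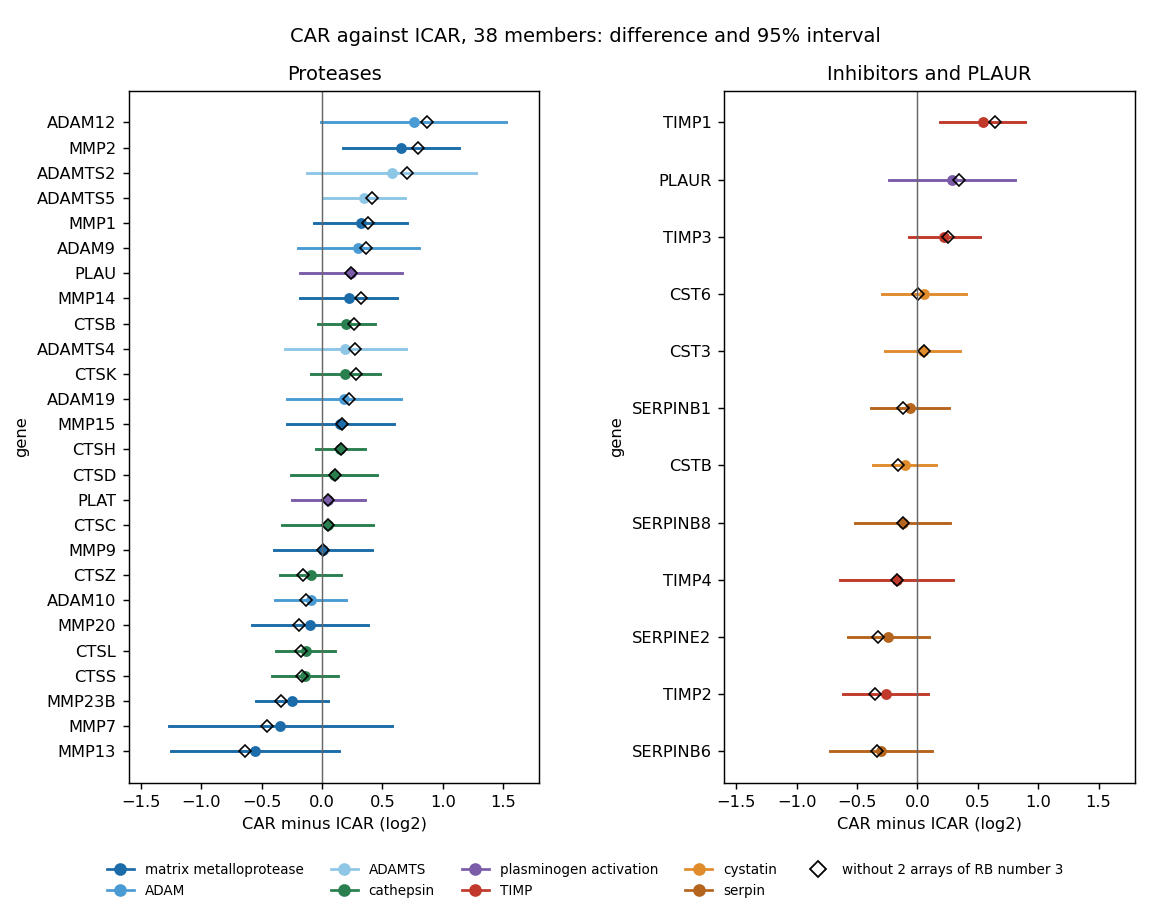
Log2 difference between CAR and ICAR (x axis, positive where CAR was higher) for 38 of the 39 members tested on 32 arrays, proteases on the left and inhibitors with the receptor PLAUR on the right, coloured by family. Filled points are the estimates with 95% intervals, and open diamonds are the estimates without the 2 contralateral arrays of RB number 3. The intervals of TIMP1 (0.19 to 0.89), MMP2 (0.18 to 1.13) and ADAMTS5 lie above 0.

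The other metalloproteases gave smaller or more variable differences, none past the adjusted threshold with or without the pair. ADAM12, an ADAM made in a membrane-bound and a secreted form, had the largest log2 difference of any member at 0.76 (95% interval -0.01 to 1.53). Without the pair it was 0.87 (95% interval 0.07 to 1.67, with an unadjusted limma p of 0.0341 and an adjusted p of 0.178). Levels reached from -3.28 to -0.02 in CAR, and in ICAR they lay between -4.38 and 0.23. ADAMTS5, an aggrecanase, had a log2 difference of 0.35 (SE 0.17, limma adjusted p = 0.290), and ADAMTS4, also an aggrecanase, one of 0.19. For ADAMTS2 the log2 difference was 0.58 with 15 of 32 arrays well above background, and for the collagenase MMP1 it was 0.32. MMP14, the membrane-type MMP that activates the precursor of MMP2, differed by 0.22 (SE 0.20), and the gelatinase MMP9 by 0.01 (SE 0.20). Means were lower in CAR for MMP7, the epithelial matrilysin (-0.34, SE 0.45), for the membrane-anchored MMP23B (-0.25, SE 0.15) and for MMP13 (-0.55, SE 0.34). ADAM10, a sheddase of Notch and cadherins, differed by -0.09 (SE 0.14) and ADAM9, a related sheddase, by 0.30 (SE 0.25). Without the pair the log2 differences were 0.41 for ADAMTS5, 0.70 for ADAMTS2, 0.32 for MMP14 and -0.34 for MMP23B. ADAM12 and ADAMTS2, like ADAMTS5, were singled out after their values were seen.

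Among the inhibitors SERPINE2, or protease nexin-1, ran the other way from TIMP1. Its log2 level lay between 1.79 and 4.20 in CAR (median 3.08) and between 1.88 and 4.10 in ICAR (median 3.36). The log2 difference of -0.24 (SE 0.16, limma adjusted p = 0.521) did not pass, although the mean of both horns was lower in CAR for all 8 numbers (exact sign-change test, p = 0.00781). Without the pair the log2 difference was -0.33 (SE 0.16, limma adjusted p = 0.207). The plasminogen activators differed by 0.24 for PLAU (SE 0.21) and by 0.05 for PLAT (SE 0.15), and PLAUR by 0.29 (SE 0.26). TIMP2, which both inhibits MMP2 and helps activate it, had a log2 difference of -0.26 (SE 0.17), TIMP3, which is held in the matrix, one of 0.22 (SE 0.14), and TIMP4 one of -0.17 (SE 0.23).

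**Figure D2:**
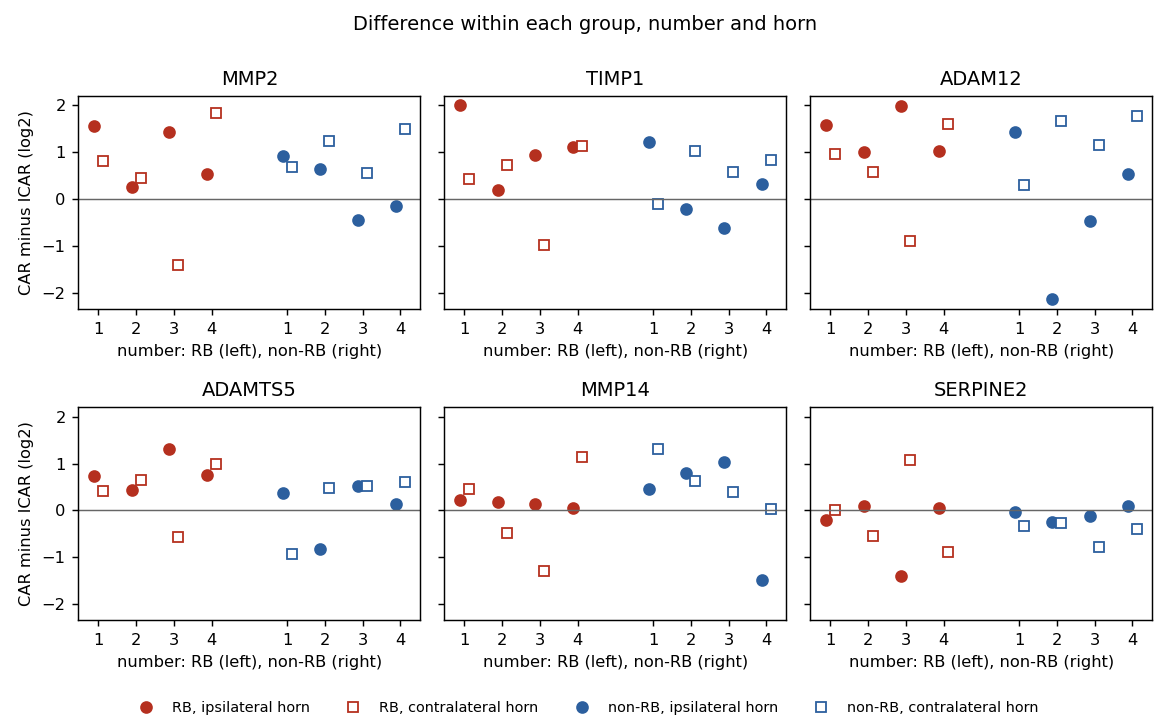
CAR minus ICAR log2 difference within each group, number and horn (y axis) for MMP2, TIMP1, ADAM12, ADAMTS5, MMP14 and SERPINE2, with points above 0 where CAR was higher. For MMP2 and TIMP1 the contralateral point of RB number 3 (-1.40 and -0.98) is the lowest of 16, and for SERPINE2 it is the highest at 1.07.

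Cathepsins varied little. Their median SD within a group, compartment and horn was 0.37 on the log2 scale, against 0.56 over the 39 members, 0.67 for MMPs, 0.71 for ADAMs and 0.50 over all probes tested. Between CAR and ICAR the log2 differences of the 8 cathepsins ran from -0.14 for CTSS and CTSL to 0.20 for CTSB, with a median of 0.07. Without the pair they ran from -0.18 for CTSL to 0.28 for CTSK. CTSB and CTSK, a collagen-degrading cathepsin, had an unadjusted p under 0.05 once the pair was left out (log2 differences 0.26 and 0.28). The probe named CTSL carries an accession that the reference table now names CTSV. The cystatins CST3, CST6 and CSTB differed by 0.04, 0.05 and -0.11 (SE 0.13 to 0.17).

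Markers of other cells moved with the CAR to ICAR difference. All 6 stroma probes had the higher mean in CAR, with a median log2 difference of 0.35, and 3 of them had an unadjusted p under 0.05 (COL1A1, COL1A2 and PDGFRA). All 5 epithelium probes had the lower mean in CAR, with a median of -0.13, and 2 of them had an unadjusted p under 0.05 (KRT8 and MUC1). Without the contralateral pair of RB number 3 these medians were 0.46 and -0.23, and 1 of 6 stroma and 2 of 5 epithelium probes passed the adjusted test. Of the 3 smooth muscle probes 1 had the higher mean in CAR, DES, with a log2 difference of 0.64 and an unadjusted limma p of 0.00962 on all arrays, and 1 of 3 passed without the pair. The summed log2 level of the stroma probes lay between 5.27 and 7.01 in CAR and between 4.79 and 6.80 in ICAR. For the epithelium probes it lay between 2.89 and 5.38 in CAR and between 2.69 and 5.43 in ICAR. The part of this in the differences of MMP2, TIMP1 and SERPINE2 was not tested. Of 20 probes for other genes of proteolysis, 18 were tested and 0 passed on all arrays. Without the pair 3 passed, the serpins SERPING1 (log2 difference 0.50) and SERPINF1 (0.47) higher in CAR and SERPINA5 (-0.40) lower.

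The horns were compared to ask whether levels went with the side of the corpus luteum, and no difference was detected. Of 39 members 0 passed the adjusted test, as did 0% of all probes, and 0 had an unadjusted p under 0.05 beside 1.36% of all probes. The smallest p-value belonged to the aspartic protease CTSD, with log2 levels from 1.03 to 2.82 in the ipsilateral horn (median 1.99) and from 0.41 to 2.93 in the contralateral horn (median 1.79). CTSD differed by 0.29 (95% interval -0.07 to 0.65, unadjusted limma p = 0.107, exact sign-change p = 0.195). MMP20, or enamelysin, followed with -0.36 (95% interval -0.84 to 0.12, unadjusted limma p = 0.139, exact sign-change p = 0.0703), from medians of -7.27 and -6.68. For both the ranges of the horns overlapped. CTSD gave 0.12 without non-RB number 2 and 0.08 with the slide as a block, and MMP20 gave -0.15 with normexp, another background correction. Leaving out the contralateral pair of RB number 3 left the counts of members at 0.

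RB and non-RB cows were then compared within each compartment, 4 arrays against 4, to see whether repeat breeding went with another protease balance. No member passed the adjusted test in any compartment, and neither did any other probe (0% in each). The smallest adjusted p of a member was 0.863 in ICAR ipsilateral and 1.0 elsewhere. A two-sided exact permutation test of 4 against 4 cannot go below p = 0.0286, which a gene reaches when its groups do not overlap. The values below describe the members with the smallest p-values and are not calls. RB numbers 2 and 3 lay on slide 2, which held no non-RB array, and only slides 6 and 8 held both groups. For these numbers group and slide cannot be told apart. In CAR ipsilateral no slide held both groups. With the slide as a block, each other compartment's difference rests on RB numbers 1 and 4 and the non-RB arrays sharing their slides.

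In CAR ipsilateral both members with an unadjusted p under 0.05 were inhibitors, 2 of 38 tested beside 3.41% of all probes. SERPINB1, which inhibits neutrophil elastase and related serine proteases, had log2 levels of -0.51, -0.52, -0.72 and -0.30 in RB cows 1 to 4 and of 0.29, -0.09, 0.14 and 0.08 in non-RB cows. All 4 RB arrays lay below all non-RB arrays. The log2 difference was -0.62 (SE 0.23, unadjusted limma p = 0.0218, adjusted p = 1.0, exact p = 0.0286), and without RB number 3 it was -0.55 with an unadjusted limma p of 0.0655. CSTB, a cystatin inside the cell that blocks cysteine cathepsins, had levels of 3.02, 3.22, 3.58 and 2.61 in RB and 4.05, 3.70, 3.54 and 3.74 in non-RB cows, which overlapped by 1 array. Its log2 difference was -0.65 (SE 0.27, unadjusted limma p = 0.0393, adjusted p = 1.0, exact p = 0.0571). CTSL, with levels of 1.75 to 2.40 in RB and 2.48 to 3.19 in non-RB cows, was the other member without overlap, which made 2 of 38 beside 1.97% of all probes. Its log2 difference was -0.59 (SE 0.27, unadjusted limma p = 0.0543, exact p = 0.0286). With the scan session as a block SERPINB1 gave -0.59 and CSTB -0.76. Without RB number 4 CSTB gave -0.48 with an unadjusted limma p of 0.102. In the same compartment all 5 epithelium probes had the lower mean in RB cows, with a median log2 difference of -0.85 and a summed level of 3.14 to 3.94 against 3.92 to 5.38, and its part in these values was not tested.

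In ICAR ipsilateral both members at an unadjusted p under 0.05 were proteases, 2 of 39 beside 3.69% of all probes. CTSD had log2 levels of 1.58, 1.74, 1.03 and 1.78 in RB cows and of 2.54, 2.49, 2.0 and 1.95 in non-RB cows. No array of one group reached the other, with a log2 difference of -0.71 (SE 0.25, unadjusted limma p = 0.0201, adjusted p = 0.863, exact p = 0.0286). Without RB number 3 it was -0.54 with an unadjusted limma p of 0.0587. MMP2 had levels of -2.71, -2.21, -3.55 and -2.48 in RB and of -2.25, -1.29, -1.63 and -1.99 in non-RB cows, and overlapped by 1 array. The log2 difference came to -0.95 (SE 0.33, unadjusted limma p = 0.0190, adjusted p = 0.863, exact p = 0.0571). CSTB did not overlap here either, at 3.19 to 3.35 in RB and 3.47 to 3.94 in non-RB cows, with a log2 difference of -0.39 (SE 0.19, unadjusted limma p = 0.0679, exact p = 0.0286). CTSD and CSTB thus made 2 of 39 members without overlap, beside 2.23% of all probes. With the slide as a block CTSD gave -0.56 and MMP2 -1.14, and with the scan session -0.74 and -0.86. Of the epithelium probes 3 of 5 had the lower mean in RB cows here, with a median log2 difference of -0.70. So did 5 of 6 stroma probes, with a median of -0.19, and 2 of 3 smooth muscle probes, also with a median of -0.19. The part of these markers in the values of CTSD, MMP2 and CSTB was not tested.

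In CAR contralateral ADAM9 had the largest difference past an unadjusted p of 0.05, and it rested in part on an array of slide 1. Its log2 levels were -2.69, -2.17, -2.24 and -3.09 in RB cows and -3.38, -5.49, -3.46 and -3.63 in non-RB cows. The groups did not overlap, and the value of -5.49 was that of slide 1. The log2 difference was 1.45 (SE 0.48, unadjusted limma p = 0.0147, adjusted p = 1.0, exact p = 0.0286). Without that array it was 0.95 with an unadjusted limma p of 0.00694, with the slide as a block 0.53 with an unadjusted limma p of 0.0713, and with the scan session as a block 0.56 with an unadjusted limma p of 0.0265. PLAU, the urokinase-type activator, had levels of -1.36, -2.27, -1.88 and -1.52 in RB and -0.77, -0.92, -1.59 and -0.85 in non-RB cows, with overlap. Its log2 difference of -0.73 (SE 0.29, unadjusted limma p = 0.0328, adjusted p = 1.0, exact p = 0.0857) became -0.26 with the slide and -0.42 with the scan session as a block, and -0.69 with an unadjusted limma p of 0.0680 without RB number 3. These were 2 of 40 members beside 1.74% of all probes, and ADAM9 was the 1 member without overlap, beside 1.37%. Of the epithelium probes 4 of 5 had the lower mean in RB cows, with a median log2 difference of -0.14, and their part was not tested.

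In ICAR contralateral PLAT, the tissue-type activator, had log2 levels of 3.85, 4.42, 3.86 and 4.36 in RB cows and 5.29, 4.76, 4.45 and 4.76 in non-RB cows. All RB arrays lay below the non-RB arrays, though the closest values were 4.42 and 4.45. PLAT differed by -0.69 (SE 0.26, unadjusted limma p = 0.0278, adjusted p = 1.0, exact p = 0.0286). ADAM10 had levels of 0.39, 0.91, 0.59 and 0.78 in RB and -0.56, 0.44, -0.18 and 0.35 in non-RB cows, overlapping by 1 array, with a log2 difference of 0.66 (SE 0.28, unadjusted limma p = 0.0437, adjusted p = 1.0, exact p = 0.0571). They made 2 of 39 members beside 1.6% of all probes, and PLAT was the 1 member without overlap beside 1.48%. Without RB number 3, 0 members had an unadjusted p under 0.05 in this compartment, where PLAT gave -0.60 and ADAM10 0.69. The non-RB array of number 1, with the highest PLAT and the lowest ADAM10 level, was on slide 1. Without it PLAT gave -0.53 and ADAM10 0.47. With the slide as a block PLAT gave -0.50 and ADAM10 0.46, and with the scan session -0.53 and 0.38. Here 6 of 6 stroma probes and 3 of 3 smooth muscle probes had the higher mean in RB cows, with median log2 differences of 0.28 and 0.33, and 5 of 5 epithelium probes had the lower mean, with a median of -0.31. Their part in the values of PLAT and ADAM10 was not tested.

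**Figure D3:**
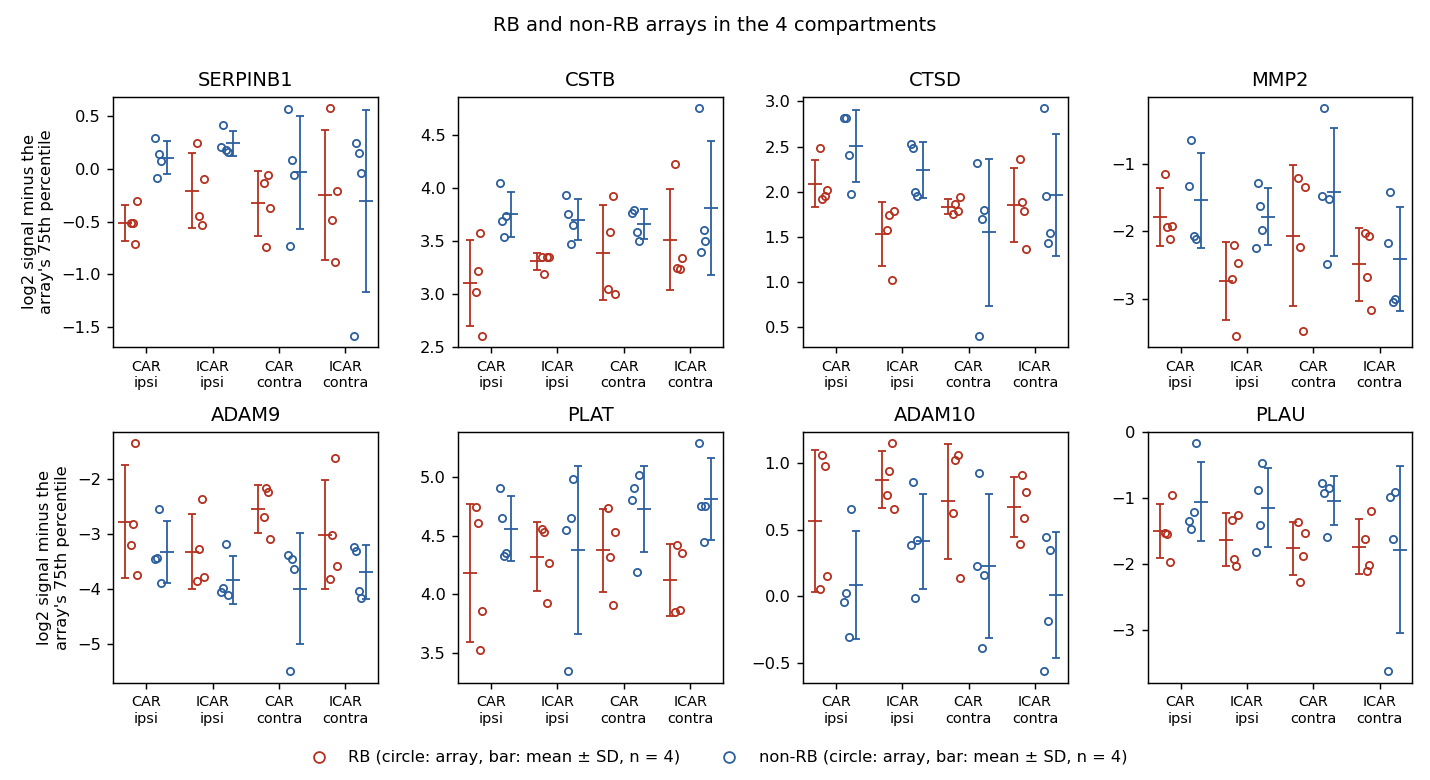
Log2 level relative to the 75th percentile of each array (y axis) for SERPINB1, CSTB, CTSD, MMP2, ADAM9, PLAT, ADAM10 and PLAU in the 4 compartments (x axis), with 1 circle per array and a bar for the mean ± SD (n = 4) of RB and non-RB cows. The ADAM9 point at -5.49 in non-RB CAR contralateral lies far below the other 3 arrays of its group, at -3.63 to -3.38.

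The 4 arrays of each group and number were averaged for the whole uterus, which takes a number as a cow. No member passed the adjusted test, nor did any probe (0%), and 3 of 39 members had an unadjusted p under 0.05 beside 2.21% of all probes. ADAM10 had means of 0.46, 0.98, 0.95 and 0.43 for RB numbers 1 to 4 and 0.00, 0.56, -0.22 and 0.39 for non-RB numbers, a log2 difference of 0.52 (SE 0.23, unadjusted limma p = 0.0483, exact p = 0.114) with overlap. Without non-RB number 3 the ADAM10 difference was 0.39 with an unadjusted limma p of 0.131, and with the slide as a block it was 0.36. ADAM9 had -3.39, -2.82, -1.90 and -3.55 against -3.53, -4.05, -3.31 and -3.95, a log2 difference of 0.80 (SE 0.35, unadjusted limma p = 0.0499, exact p = 0.143) with overlap. RB number 3 was the highest for ADAM9, and without it the log2 difference was 0.46. It was 0.03 with the slide as a block. The third was ADAMTS2 (-0.79, SE 0.34, unadjusted limma p = 0.0457, exact p = 0.0857), whose signal was well above background on 7 of the 16 RB arrays and 8 of the 16 non-RB arrays, and which gave -0.50 without the arrays of slide 1, -0.47 without non-RB number 2, -0.35 with normexp, -1.11 with the slide as a block and -0.46 with the scan session as a block.

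CSTB was the only member whose RB and non-RB means did not overlap in the whole uterus, beside 1.19% of all probes. The RB means were 3.41, 3.31, 3.53 and 3.08, and the non-RB means were 4.13, 3.66, 3.55 and 3.60, so that the closest values of the groups were 3.53 and 3.55. CSTB differed by -0.40 (SE 0.19, unadjusted limma p = 0.0580, exact p = 0.0286). By compartment the ipsilateral horn gave -0.65 (CAR) and -0.39 (ICAR), and the contralateral horn -0.27 (CAR) and -0.30 (ICAR). The other cystatins gave -0.13 for CST3 and -0.19 for CST6 in the whole uterus. The epithelium probes gave a median log2 difference of -0.65, 5 of 5 with the lower mean in RB cows and 0 with an unadjusted p under 0.05, and their part in the CSTB value was not tested.

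Across compartments 11 of 39 members had the lower mean in RB cows in all 4, beside 14.1% of all probes, and 6 had the higher mean in all 4, beside 15.6%. The compartments come from the same 4 and 4 cows, so these are not separate observations, and the counts were not tested. The lower ones were the proteases MMP2, MMP9, MMP13, MMP20, ADAMTS2, CTSL and PLAT and the inhibitors CSTB, SERPINB8, SERPINE2 and TIMP2. Of these MMP13 was not well above background on any RB array of CAR ipsilateral, where it was not tested. The higher ones were ADAM9, ADAM10, CTSK, MMP15, TIMP3 and TIMP4. For the named matrix genes the whole-uterus log2 differences were -0.48 for MMP2 (SE 0.33), -0.09 for MMP9 (SE 0.30), -0.21 for MMP1 (SE 0.32), -0.03 for MMP14 (SE 0.24), 0.10 for TIMP1 (SE 0.22), -0.19 for TIMP2 (SE 0.22), 0.27 for TIMP3 (SE 0.22) and 0.35 for TIMP4 (SE 0.39). In all of these the 95% interval included 0. SERPINE2 differed by -0.47 (SE 0.23), PLAU by -0.40 (SE 0.30) and PLAUR by 0.22 (SE 0.24).

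**Figure D4:**
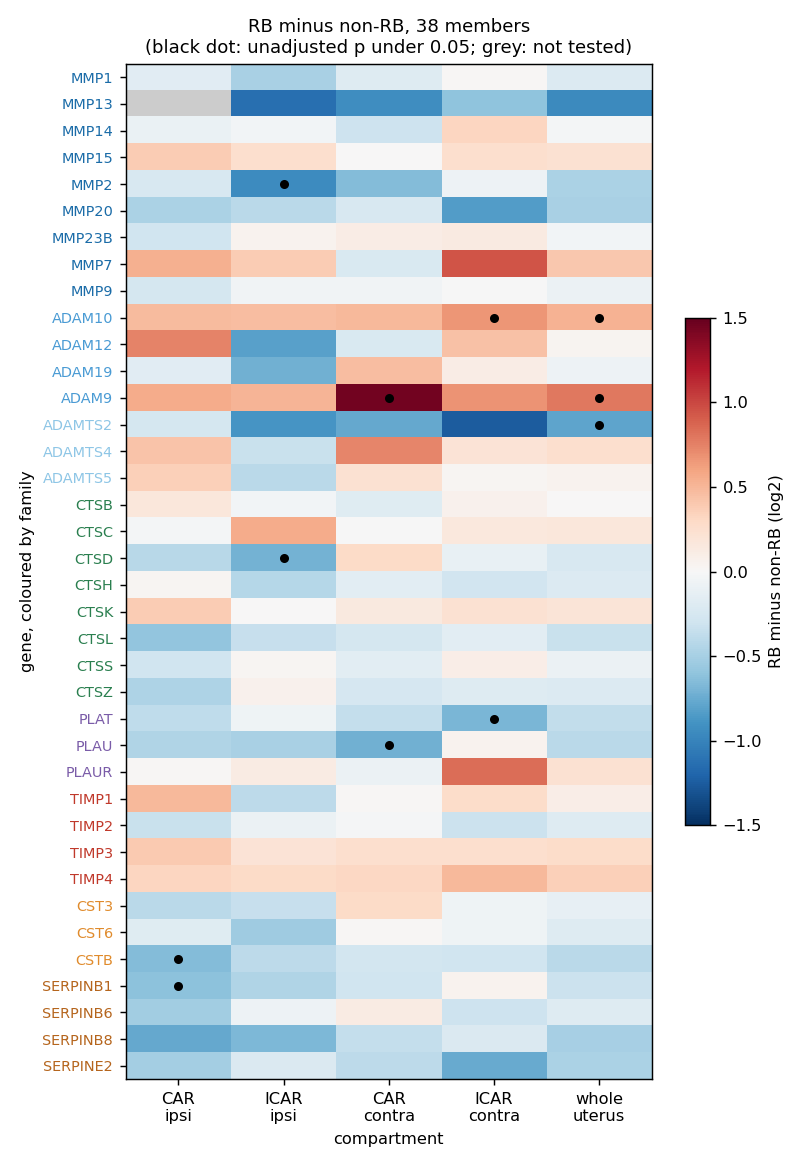
RB minus non-RB log2 difference (colour) for 38 members (y axis, proteases and the receptor above the inhibitors) in the 4 compartments and the whole uterus (x axis), with a black dot where the unadjusted limma p was under 0.05 and grey where a member was not tested. There are 2 dots in each compartment and 3 in the whole uterus, with ADAM9 in CAR contralateral the strongest at 1.45.

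Whether the RB difference itself changed with the compartment or the horn was tested on all 32 arrays. Between CAR and ICAR 0 members and 0% of all probes passed, and 0 members had an unadjusted p under 0.05 beside 0.642% of all probes. The smallest p-values were those of CTSH (RB difference higher in CAR by 0.29 on the log2 scale, SE 0.20, with an unadjusted limma p of 0.162), ADAMTS5 (0.48, SE 0.34) and ADAMTS4 (0.65, SE 0.50). The ADAMTS4 value was 0.07 without non-RB number 2 and 0.33 without the arrays of slide 1, and that of CTSH was 0.16 with the slide as a block and 0.19 without the arrays of slide 1. Without the contralateral pair of RB number 3 the value was 0.88 for ADAMTS4 and 0.64 for ADAMTS5. Between horns 0 members and 0% of all probes passed, and 0 members had an unadjusted p under 0.05 beside 1.04%. CTSD came nearest, with an RB difference lower in the ipsilateral than in the contralateral horn by -0.65 (SE 0.33, 95% interval -1.32 to 0.03, with an unadjusted limma p of 0.0592), followed by ADAM19 (-0.73, SE 0.47), a sheddase of neuregulins, and CST3 (-0.48, SE 0.31), a secreted inhibitor of cysteine cathepsins. Without non-RB number 2 these became -0.36 for CTSD and -0.28 for CST3, and without the arrays of slide 1 they became -0.40 for ADAM19 and -0.27 for CST3. ADAM19 gave -0.12 with normexp, and with the scan session as a block ADAM19 gave -0.48 and CST3 -0.29. Without the contralateral pair of RB number 3 the values were -0.66 for CTSD, -0.77 for ADAM19 and -0.55 for CST3. For CTSD the RB difference was -0.41 and -0.71 in the ipsilateral horn (CAR, then ICAR), against 0.28 and -0.11 in the contralateral horn. The RB differences at an unadjusted p under 0.05 in 1 compartment were therefore not shown to differ from those in the others.

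Of the other genes of proteolysis, chosen by role and not by the rule, 17 to 19 of 20 probes were tested in each compartment and 0 passed between RB and non-RB cows. At an unadjusted p under 0.05 there was 1 in CAR ipsilateral, 1 in ICAR ipsilateral, 1 in CAR contralateral and 4 in ICAR contralateral, beside 3.41%, 3.69%, 1.74% and 1.6% of all probes. The elastase inhibitor PI3 gave a log2 difference of 1.83 (SE 0.70) in ICAR ipsilateral and 1.77 (SE 0.62) in the whole uterus, and SERPINA1, the plasma antitrypsin, gave -2.35 (SE 0.68) in CAR ipsilateral and -1.92 (SE 0.63) in CAR contralateral. Each of these differences was larger than that of any member in the same comparison, and all had a limma adjusted p of at least 0.863. The SERPINA1 probe failed the filter of 8 of 32 arrays, so its signal was not well above background on most arrays. In ICAR contralateral the log2 differences of the 4 were -2.53 for DPP4 (SE 0.84), 1.75 for PI3 (SE 0.69), 1.67 for SERPINA3 (SE 0.54) and -0.53 for IGF2R (SE 0.23), all with a limma adjusted p of 1.0.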

How the data were processed

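Endometrium of 4 RB and 4 non-RB cows was measured in 4 compartments, and group, compartment, horn and number were taken from the labels. The authors deposited the intensity of each spot from Agilent Feature Extraction 9.5, background-subtracted and not normalized between arrays, and a table of log2 values that equal the log2 intensity minus the array's 75th percentile apart from a constant per array. The array's genome build is not given in the sources used here. From the intensity files the same log2 values were computed (Python 3.11.15, pandas 2.3.3). Control spots were left out and outlier flags set to missing, so CST3 and MMP23B lack 1 value each.

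Probes well above background on 2 of 8 or 8 of 32 arrays were fitted with limma 3.58.1 (R 4.3.3, lmFit and eBayes), adjusted by Benjamini-Hochberg over all probes tested. RB was compared with non-RB without covariates, and CAR with ICAR and the horns with each other on 32 arrays with the other factors and group. The 75th percentile lay between 1165 and 4857 intensity units, and 74.3% to 85.8% of probes were well above background. Precision is limited by the number of arrays, and between RB and non-RB by the 4 cows of each group. The fit was tested on simulated data.

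The members and lists were chosen with earlier results of these data known. Named were members called between CAR and ICAR, those at an unadjusted p under 0.05 without overlap between RB and non-RB arrays, the 2 or 3 smallest p-values where none was called, and 27 genes listed by role, of which 24 had a probe. Accessions of 25 members and symbols of 41 matched RefSeq. The alternatives were quantile and normexp processing, the deposited log2 table, other filters, slide, scan session or number as a block, the methods' t-test and leaving out arrays. The values of 1 member, which stays in the counts, are not reported here.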

Additional observations from a re-analysis of the deposited data

Results flagged for a closer look

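In 8 genes named above, 61 groups of 4 arrays were searched for an array far from the other 3 (Dixon's ratio), of which chance gives about 1 in 20, and 4 were found. ADAM9 in non-RB CAR contralateral was lowest on the array of number 2, at -5.49 against -3.63 to -3.38 on the others, and this array was on slide 1. ADAM9 in non-RB ICAR ipsilateral was highest in number 3, at -3.18 against -4.12 to -3.98. ADAMTS5 in non-RB CAR ipsilateral was also highest in number 3, at -3.13 against -4.32 to -4.13. SERPINB1 in non-RB ICAR contralateral was lowest in number 1, at -1.59 against -0.04 to 0.24, and this array was the other of slide 1.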

How the results depend on the processing

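Of 172 alternatives for the counts of members passing the adjusted test, 168 left the count at 0, and the 4 others concerned CAR against ICAR. There the count was 2 (MMP2 and TIMP1) with the number as a replicate block. It was also 2 without the contralateral arrays of RB number 3, beside 9.97% of all probes, and 2 without these and the arrays of slide 1. Both of these omissions were chosen after seeing the data. When 1 number was left out the count was 0 to 2. The pairing by number is not stated in the labels. Deviations of arrays of the same number correlated above 0.1 in 22 of 24 pairs within RB and 21 of 24 within non-RB cows, some of which share a slide. For arrays of different numbers this was so in 15 of 72 pairs within RB and 10 of 72 within non-RB cows. The replicate block changed no other such count. ADAM9 moved from 1.45 in CAR contralateral to 0.53 with the slide and 0.56 with the scan session as a block. In the whole uterus it moved from 0.80 to 0.03 with the slide as a block, in a fit of 32 arrays with the number as a random block. Normexp moved the median of all probes by -0.22 in RB against non-RB of ICAR contralateral and by 0.14 in the difference of the RB effect between CAR and ICAR. For the methods' t-test, members below its limit in CAR ipsilateral, ICAR ipsilateral, CAR contralateral and ICAR contralateral were 5, 3, 3 and 2, and 0 after Benjamini-Hochberg. In the whole uterus a t-test on the means of each number gave 1, and 0 after Benjamini-Hochberg. The paper's whole-uterus test instead took every array of a group as a sample. With the 32 arrays taken as independent in limma, with compartment and horn in the fit, 12 members had an unadjusted p under 0.05 in the whole uterus. The adjusted test was passed by 0. Shares of all probes for these other settings and tests are not given here, so their counts are not results about the members.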

Other observations

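MMP7, the matrilysin of epithelial cells, stood apart in non-RB number 3. Its log2 level lay between -5.91 and -5.18 on all 4 arrays of that number, below the other 28 arrays, which ran from -3.90 to -0.16. Over 12384 probes there were 418 cases (3.38%) in which the 4 arrays of 1 number lay together above or below all others. The group differences of MMP7 between RB and non-RB cows, such as 0.41 (SE 0.71) in the whole uterus, include this number.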
